A study of Mus musculus with 8 samples.

Results

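The miR-30 family is a set of closely related microRNAs (miRNAs), short RNAs that pair with messenger RNAs and lower their translation or stability. The array carried 10 mouse miR-30 names among 650 miRNAs, namely the guides miR-30a, miR-30b, miR-30c, miR-30d and miR-30e and the star strands miR-30a*, miR-30b*, miR-30c-1*, miR-30c-2* and miR-30e*. On the array the guides are labelled mmu-miR-30a, mmu-miR-30b, mmu-miR-30c, mmu-miR-30d and mmu-miR-30e. Members were chosen by name, as every non-control feature whose name has the stem of 1 of these 5 miRNAs. They were read by 25 of the 1857 probes, with 20 spots for each name. Signal was strong enough for testing for 7 of the 10 names, against 168 of the 650 miRNAs on the array.

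The samples were 4 RapCA cultures and 4 vector cultures of microvascular smooth muscle cells. All came from male mice on the C57BL6 strain and had the genotype Rap1a -/-, which lacks a Ras-related small GTPase. RapCA cells had received the RapCA shuttle vector and vector cells an empty shuttle vector, and both were given virus overnight without serum. RNA was taken after 48 h of recovery in medium with 0.5% serum. The title of the series calls this knockout against rescue. What RapCA encodes and which promoter drives it are not given in the sources used here, nor whether the 4 cultures of a group came from different mice. The p-values below therefore measure the spread between these 8 cultures, which may be technical.

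A guide is the strand of the miRNA hairpin that is usually loaded into the silencing complex, and a star strand is its partner from the other arm. All miR-30 guides are known to share their seed, the bases that do most of the pairing with a target, and so share many predicted targets. In human coronary smooth muscle cells, miR-30b and miR-30c are known to repress the bone-forming factor RUNX2, and loss of this repression is a known step in vessel calcification. In rodent heart, miR-30c is known to repress connective tissue growth factor. In human cells miR-30a is known to repress the autophagy gene BECN1, and miR-30e the SUMO-conjugating enzyme UBC9, while miR-30d was linked to insulin synthesis in mouse pancreatic beta cells.

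The mature sequences below are from RefSeq (GRCm38.p6), which held 7 of the 10 array names when the star of an array name was read as the 3p arm and a guide as the 5p arm. They are shown because the differences between the guides shown lie outside the seed, and because 2 of the pairs shown differ in a single base. Each is written 5′ to 3′, with the seed (bases 2 to 8) in capitals.
miR-30a: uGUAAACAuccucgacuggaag
miR-30e: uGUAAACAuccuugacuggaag
miR-30c: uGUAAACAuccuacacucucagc
miR-30a*: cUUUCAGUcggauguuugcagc
miR-30e*: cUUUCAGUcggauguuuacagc
miR-30c-1*: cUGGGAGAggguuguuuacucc
miR-30c-2*: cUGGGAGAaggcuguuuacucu
The guides miR-30a, miR-30c and miR-30e all had the seed GUAAACA. Counted from 1 at the 5′ end, miR-30a and miR-30e differed by C13U alone. Over the 22 bases compared, miR-30a and miR-30c differed at 5 positions (C13A, G14C, G18C, G19U and A20C), and miR-30c was 1 base longer. The star strands fell into 2 seed groups, UUUCAGU for miR-30a* and miR-30e* and UGGGAGA for miR-30c-1* and miR-30c-2*. miR-30a* and miR-30e* differed by G18A alone. How far a probe for 1 of these near-identical RNAs also binds the other was not tested. The sequences of miR-30b, miR-30b* and miR-30d were not held, so single-base pairs that include them could not be counted. Binding between their probes and other members was not tested either.

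These RNAs come from 3 places in the mouse genome. On the plus strand of chromosome 1, miR-30a lies at chr1:23272274-23272295 and miR-30a* at chr1:23272315-23272336, within the hairpin Mir30a. The hairpin Mir30c-2 follows after 19361 bases and holds a copy of miR-30c at chr1:23291714-23291736 and miR-30c-2* at chr1:23291754-23291775. On the minus strand of chromosome 4, Mir30e holds miR-30e at chr4:120772660-120772681 and miR-30e* at chr4:120772618-120772639. Mir30c-1, with 2983 bases between the hairpins, holds the other copy of miR-30c at chr4:120769584-120769606 and miR-30c-1* at chr4:120769546-120769567. Both chromosome 4 hairpins lie within the bounds of Nfyc, which encodes a subunit of the transcription factor NF-Y, and the table used here lists no such gene around the others. Mir30b and Mir30d are neighbours on chromosome 15. The miR-30c guide is the same RNA from both of its loci, so its signal cannot be assigned to either.

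Before any scaling, the RapCA arrays were dimmer. The scanner software's summed signal over all miRNAs was 56618, 26374, 29218 and 28388 on RapCA replicates 1 to 4, against 64361, 73496, 81972 and 59506 on vector replicates 1 to 4. RapCA replicate 1 thus stood close to the vector arrays, and the other 3 RapCA arrays well below them. The 4 spike-in RNAs differed by less than the spread within a group (geometric mean 1243 ± 106 in RapCA and 1243 ± 108 in vector, SD, n = 4 each; exact permutation p = 1). All arrays lay on 1 slide and were read in 1 scan, but the RapCA arrays filled row 2 of the slide and the vector arrays row 1, so slide row and group cannot be told apart. The smooth muscle miRNA miR-143 was detected on all 8 arrays and miR-145 on all 4 vector arrays but on 0 of 4 RapCA arrays. Among markers of other cells, none was detected on any array for endothelium (0 of 2), white blood cells (0 of 4), red blood cells (0 of 2) or epithelium (0 of 6). Striated muscle had 1 of 4 (miR-206, with a log2 difference of 0.06 that was not called), and neural markers had 1 of 3 (miR-128, not tested).

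The summed signal of the 10 miR-30 names followed the dimming and went beyond it. It was 511, 174, 205 and 190 on RapCA replicates 1 to 4, against 646, 738, 868 and 567 on vector replicates 1 to 4, so the groups did not overlap. As a share of each array's total, the family made up 0.733% ± 0.114 in RapCA and 1.005% ± 0.0436 in vector (SD, n = 4 each), a difference of -0.272 percentage points (two-sided exact permutation p = 0.0286, the smallest possible, adjusted 0.0381 over 4 array measures). RapCA replicate 1 had 0.902% and the other RapCA arrays 0.661% to 0.700%, against 0.953% to 1.059% on the vector arrays. miR-30a gave most of this signal, so the share mainly follows that member. The shares of other miRNAs were not computed, so whether such a fall is particular to the family was not tested.

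All further values are log2 signals brought to an equal 75th percentile, taken over 189 probes that every array detected, with a floor at 3.26. In RapCA cells miR-30c, miR-30a, miR-30b and miR-30a* were lowered, and miR-30d, miR-30e and miR-30e* did not pass the test. The threshold was an adjusted p of 0.05 in limma, a linear model fitted across all 168 tested miRNAs. A total of 4 of 7 tested members were lowered and 0 raised, where 50.0% of all tested miRNAs were lowered and 26.2% raised. The median difference of the 7 members was -0.30 on the log2 scale, and that of all 168 tested miRNAs was -0.30 as well, with quartiles of -0.77 and 0.44. The share lowered is thus near the background. miR-30a* and miR-30e* entered the test through the vector group alone, since the RapCA arrays mostly did not detect them, so their presence in these counts rests on that filter. With only probes detected on all 8 arrays, 5 members were tested, all of them guides, and 4 were lowered (miR-30a, miR-30b, miR-30c and miR-30e), where 57 of 115 miRNAs were lowered. In cultures measured as a whole, fewer cells that make an miRNA and less of it per cell cannot be told apart.

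**Figure D1:**
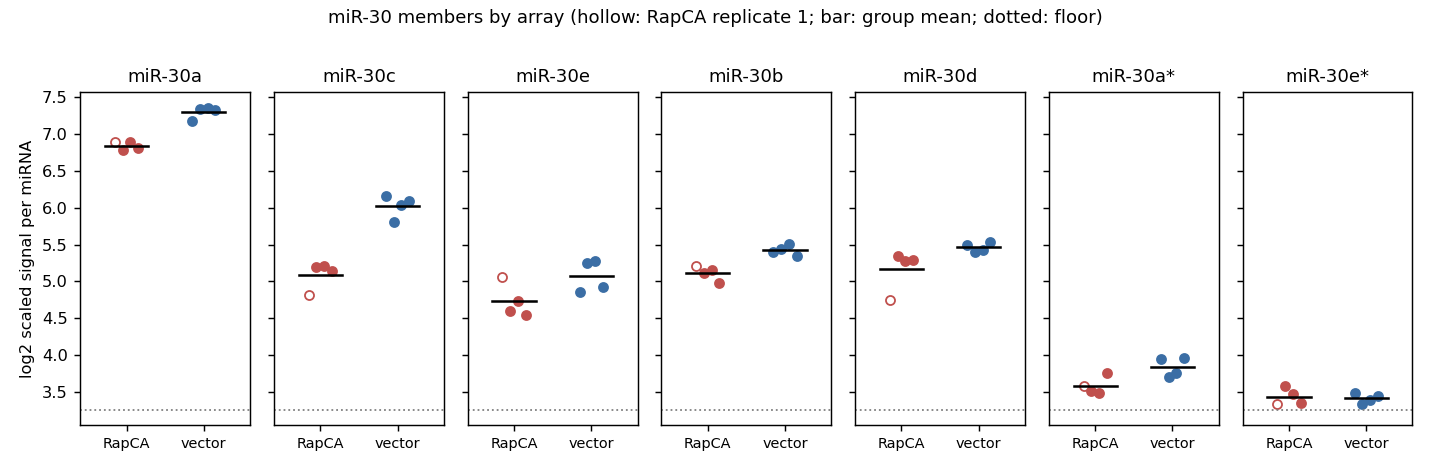
Log2 scaled signal of the 7 tested miR-30 members on each array, RapCA left and vector right in each panel. Points are arrays (RapCA replicate 1 hollow), bars are group means and the dotted line is the floor at 3.26. The groups separate most clearly for miR-30c (RapCA up to 5.21, vector from 5.80).

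miR-30c showed the largest difference among the members. Its level was 4.81, 5.20, 5.21 and 5.15 on RapCA replicates 1 to 4, against 6.15, 5.80, 6.04 and 6.08 on vector replicates 1 to 4. Every RapCA array lay below every vector array, with a gap of 0.59 between the groups, and RapCA replicate 1 was the lowest. The log2 difference was -0.93 ± 0.12 (SE, n = 4 per group; limma adjusted p = 6.62e-05), which is a level of 0.526 times that of vector cells. In order from the most lowered, it ranked 32 of 168. Relative to the median of all tested miRNAs the difference was -0.62. The call rests on 1 of 2 miR-30c probes. The other was well above background on 0 of 4 RapCA and 2 of 4 vector arrays, with values no higher than 3.38 in RapCA and 3.51 in vector.

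RapCA replicate 1 was the RapCA array whose total signal lay nearest to the vector arrays, though below all 4 of them. Its unscaled miR-30c signal was 25.7, against 59.8 to 83.8 on the vector arrays, or 0.359 times their mean. Unscaled, miR-30a on that array was 0.749 times the vector mean, miR-30b 0.740, miR-30d 0.580 and miR-30e 0.879. In a fit with RapCA replicate 1 as the only RapCA array, miR-30c (-1.06), miR-30d (-0.57) and miR-30a (-0.26) were lowered. miR-30b at -0.06 and miR-30e at 0.14 were not called in it (limma adjusted p = 0.640 for both). That fit assumes that the lone array varies like the vector arrays, and the part of the dimming in the differences was not tested.

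miR-30a, from the same chromosome 1 locus as one miR-30c copy, was the brightest member. It measured 6.89, 6.78, 6.88 and 6.80 on RapCA replicates 1 to 4, against 7.17, 7.33, 7.35 and 7.32 on vector replicates 1 to 4. The groups did not overlap, and the values within each lay close together (SD 0.06 in RapCA and 0.09 in vector). The difference was -0.45 ± 0.08 (log2 ± SE, n = 4 per group; limma adjusted p = 0.000686). Without RapCA replicate 2 it was -0.23 and was not called (limma adjusted p = 0.126), a fit in which the median of all tested miRNAs also moved to -0.10. All 3 miR-30a probes were lowered, with -0.65 for the dimmest (mean 5.12 in RapCA and 5.78 in vector), -0.42 for the middle one and -0.29 for the brightest (8.27 in RapCA and 8.57 in vector).

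miR-30e, from chromosome 4, did not pass the test. It measured 5.07, 4.60, 4.73 and 4.55 on RapCA replicates 1 to 4, against 4.85, 5.25, 5.28 and 4.93 on vector replicates 1 to 4. RapCA replicate 1 lay among the vector arrays and the other RapCA arrays below all of them. The difference was -0.34 ± 0.15 (log2 ± SE, n = 4 per group; limma adjusted p = 0.0547). miR-30e was called lowered in 8 of 23 alternatives. Without RapCA replicate 1 it was -0.43 and was called (limma adjusted p = 0.0101). Without RapCA replicate 2 it was -0.09 and not called (limma adjusted p = 0.675). The 2 brightest vector arrays, replicates 2 and 3, had its 2 highest vector values, and the brightest RapCA array had its highest RapCA value. The part of brightness in the difference was not tested. The 2 probes of miR-30e had -0.28, for a dim one detected on 1 of 4 RapCA and 4 of 4 vector arrays, and -0.40.

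miR-30b and miR-30d, the chromosome 15 pair, had nearly the same mean difference but a different spread. miR-30b measured 5.21, 5.11, 5.16 and 4.98 on RapCA replicates 1 to 4, against 5.40, 5.44, 5.50 and 5.34 on vector replicates 1 to 4. The groups did not overlap, and miR-30b was lowered with -0.30 ± 0.09 (log2 ± SE, n = 4 per group; limma adjusted p = 0.00911). The call rests on 1 of 2 miR-30b probes, as the other was well above background on 0 of 4 RapCA and 0 of 4 vector arrays. This call was lost without RapCA replicate 2 (-0.10) and without RapCA replicate 4 (-0.24, limma adjusted p = 0.0515), and with quantile normalization (-0.19, limma adjusted p = 0.0633), cyclic loess (-0.23) or normexp background correction. With RapCA replicate 1 as the only RapCA array it was lost as well (-0.06).

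miR-30d measured 4.75, 5.34, 5.27 and 5.29 on RapCA replicates 1 to 4, against 5.49, 5.40, 5.42 and 5.54 on vector replicates 1 to 4. Its groups did not overlap either, but RapCA replicates 2 to 4 lay only just below the vector arrays, and RapCA replicate 1 far below. Of the 2 miR-30d probes, the brighter had -0.33 with no overlap and was lowered (limma adjusted p = 0.0389). The dimmer had -0.27 with overlapping groups and was not called (limma adjusted p = 0.0987). For miR-30d as a whole the values were as follows. The difference was -0.30 ± 0.13 (log2 ± SE, n = 4 per group) and was not called (limma adjusted p = 0.0615). Without RapCA replicate 1 it was -0.16, and without RapCA replicate 2 also -0.16. With RapCA replicate 1 as the only RapCA array it was -0.57 and was called (limma adjusted p = 0.00819). miR-30d was called lowered in 7 of 23 alternatives in all, the others being the percentile over all probes (-0.71), no scaling (-1.37), spike-in scaling (-1.37), the brightest probe (-0.33), total gene signal (-0.31) and flagged spots kept (-0.31). In all, 4 of the 7 tested members (miR-30a, miR-30b, miR-30c and miR-30d) had groups that did not overlap with RapCA lower, where this held for 46.4% of all tested miRNAs. None of the 7 had groups that did not overlap with RapCA higher, against 21.4% of all tested miRNAs.

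The star strands lay near the floor. miR-30a* measured 3.58, 3.52, 3.49 and 3.76 on RapCA replicates 1 to 4, against 3.95, 3.70, 3.76 and 3.96 on vector replicates 1 to 4. It was well above background on 1 of 4 RapCA arrays and on 4 of 4 vector arrays, and the groups overlapped. Its difference was -0.26 ± 0.10 (log2 ± SE, n = 4 per group; limma adjusted p = 0.0416), and the floor limits how far its size can be read. It was called lowered in 11 of 22 alternatives, with -2.05 for total gene signal. Under normexp it was 0.65 with an offset of 50 and called raised (limma adjusted p = 0.0176), and 0.32 without one and not called. The call in the main setting was lost in 6 of the 8 fits that left out 1 array. These were the fits without RapCA replicate 1 (-0.21), 2 (-0.04) or 3 (-0.26), and without vector replicate 1 (-0.17), 3 (-0.25) or 4 (-0.23). In the authors' deposited table of 54 selected miRNAs, miR-30a* was the 1 member listed, with 16, 8, 7 and 7 in RapCA and 23, 19, 16 and 20 in vector. The normalization of that table is not stated.

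miR-30e* had 3.34, 3.58, 3.47 and 3.35 in RapCA and 3.49, 3.34, 3.40 and 3.45 in vector, and the groups overlapped throughout. Its difference was 0.02 ± 0.09 (log2 ± SE, n = 4 per group; limma adjusted p = 0.854), with a 95% interval from -0.18 to 0.22. It too was well above background on 1 of 4 RapCA and 4 of 4 vector arrays, and with the scanner software's total signal it was at -1.20 and was called lowered (limma adjusted p = 0.0187). Unscaled, that signal was 8.70 on RapCA replicate 1 and 8.07 to 11.18 on the vector arrays. On RapCA replicates 2 to 4 it was 0.1, the value listed for not detected, as it was for miR-30a*. Under normexp background correction miR-30e* was called raised, at 0.72 with an offset of 50 (limma adjusted p = 0.0129) and at 0.49 without one (limma adjusted p = 0.0314). The remaining star strands, miR-30b*, miR-30c-1* and miR-30c-2*, had probes well above background on 0 of 8 arrays. They were not tested, so neither miR-30c locus could be followed through its own star strand.

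Taken probe by probe, 8 of the 11 tested miR-30 probes were lowered in a limma fit over 292 probes, where 51.0% of all tested probes were lowered and 26.7% raised. The miR-30a* probe, the miR-30e* probe and the dimmer miR-30e probe were each detected on 1 of 4 RapCA and 4 of 4 vector arrays. They thus entered through the vector group alone. The lowered probes include that of miR-30a* and all 3 of miR-30a. Probes of 1 miRNA are not independent, so the count does not show an excess for the family. Of the miR-30 probes 0 were raised. A value below 0 was seen for 10 of the 11, the exception being the miR-30e* probe. The count was 2 without RapCA replicate 2, 4 without vector replicate 3 and 5 without RapCA replicate 3 or 4 or vector replicate 4.

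**Figure D2:**
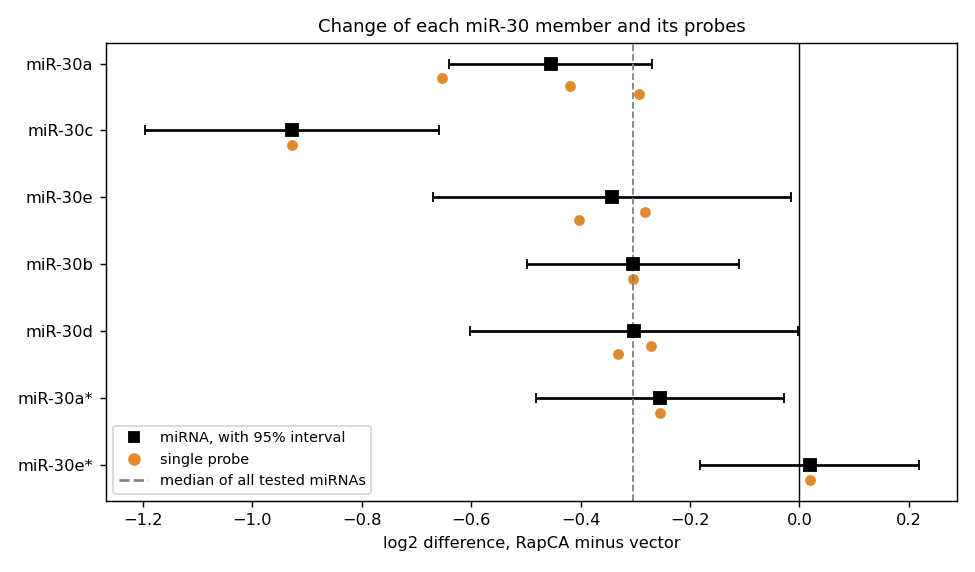
Log2 difference between RapCA and vector for each tested miR-30 member (squares, with 95% intervals from limma, n = 4 per group) and for its single probes (circles). The dashed line is the median of all 168 tested miRNAs at -0.30, and miR-30c is the 1 member whose interval lies wholly below it.

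Differences between members on the same array do not depend on the single factor by which each array was scaled, apart from the floor. miR-30a exceeded miR-30c by 2.08, 1.58, 1.67 and 1.66 on RapCA replicates 1 to 4, against 1.02, 1.53, 1.32 and 1.24 on vector replicates 1 to 4. The groups did not overlap, and the gap between this pair of chromosome 1 partners was wider in RapCA by 0.47 ± 0.15 (log2 ± SE, n = 4 per group). miR-30b minus miR-30c was wider by 0.62 ± 0.16, and miR-30c minus miR-30d changed by -0.63 ± 0.08, again with no overlap. Each of these 3 had the smallest p that the exact permutation test allows (two-sided, 0.0286), but over the 12 pairs compared the adjusted value was 0.114. So 0 of the 12 pairs passed after adjustment, and 3 were under 0.05 before it, all of which involve miR-30c. With only 3 pairs at the smallest p, none could pass over 12, so the 0 does not show that the members changed alike. Without scaling, 6 pairs had groups that did not overlap, and their adjusted value in the exact permutation test was still 0.0571. The number of pairs whose groups did not overlap, 3 here, was 5 without RapCA replicate 1 and 6 without scaling, with spike-in scaling and under both normexp settings, and not all of these involve miR-30c.

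The chromosome 4 partners, miR-30c minus miR-30e, changed by -0.59 ± 0.27 with overlapping groups (exact permutation p = 0.0857, adjusted 0.206), and without RapCA replicate 1 by -0.41. The chromosome 15 partners, miR-30b minus miR-30d, changed by -0.003 ± 0.19 (exact permutation p = 1), with 0.47, -0.23, -0.11 and -0.30 on the RapCA arrays and -0.10, 0.04, 0.08 and -0.20 on the vector arrays. miR-30a minus miR-30d, a pair whose bases could not be compared here, changed by -0.15 ± 0.17 (exact permutation p = 0.4, adjusted 0.600). Among the guide sequences shown, miR-30a and miR-30e are the pair that differs in 1 base. miR-30a minus miR-30e changed by -0.11 ± 0.13 (exact permutation p = 0.457, adjusted 0.610). This value depended on the setting. It was -0.47 without scaling, -0.45 with spike-in scaling and 0.11 with the brightest probe, and lay below 0 in 19 of 21 alternatives. The dimmer of the 2 miR-30e probes lay near the floor in RapCA (mean 3.65). For the arms, miR-30a minus miR-30a* changed by -0.20 ± 0.12 and miR-30e minus miR-30e* by -0.36 ± 0.21, neither under 0.05 in the exact permutation test, and the floor limits both.

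**Figure D3:**
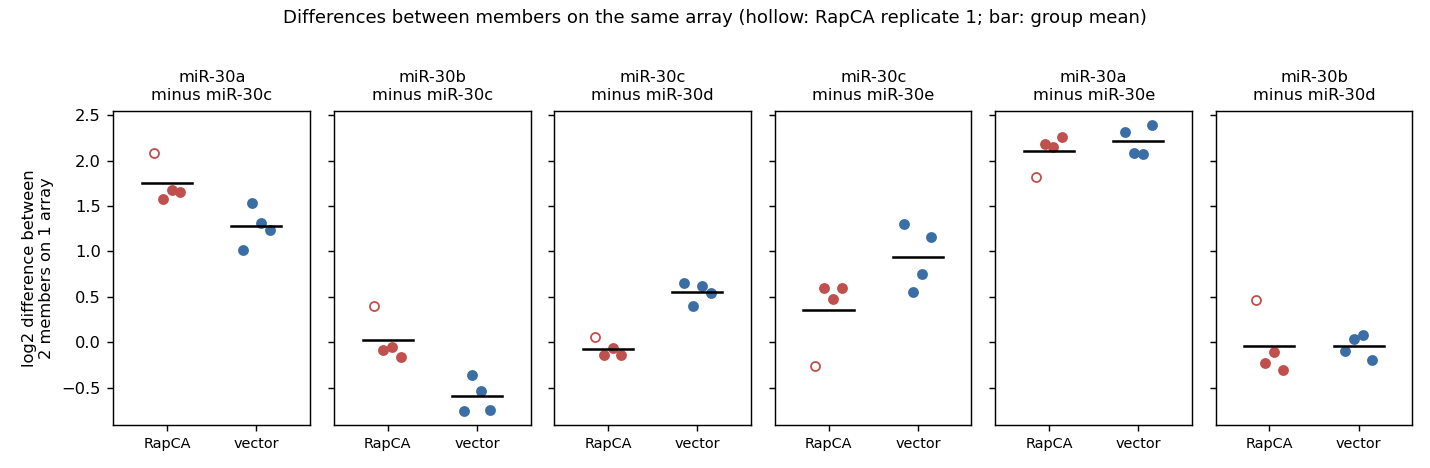
Log2 difference between 2 miR-30 guides on the same array for 6 of the 12 pairs compared, RapCA left and vector right in each panel. Points are arrays (RapCA replicate 1 hollow) and bars are group means. The groups do not overlap in the first 3 panels, which all include miR-30c.

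By locus, the mean log2 signal of miR-30a and miR-30a* on chromosome 1 was 5.21 ± 0.06 in RapCA and 5.57 ± 0.05 in vector (SD, n = 4 each), a difference of -0.35 (exact permutation p = 0.0286, adjusted 0.0429 over 3 loci). In this mean, miR-30a* entered through the vector group alone and lay near the floor, so the result rests in part on that filter. The mean of miR-30b and miR-30d on chromosome 15 was 5.14 ± 0.11 in RapCA and 5.44 ± 0.02 in vector, a difference of -0.30 (exact permutation p = 0.0286, adjusted 0.0429). For miR-30e and miR-30e* on chromosome 4 it was 4.09 ± 0.10 in RapCA and 4.25 ± 0.08 in vector, a difference of -0.16 that did not pass (exact permutation p = 0.0857). That value joins miR-30e at -0.34 with miR-30e* at 0.02, which entered through the vector group alone and lay near the floor. Its size therefore cannot be set against those of the other loci. With only probes detected on all 8 arrays, which leaves out both star strands, 2 loci passed. With miR-30c counted in, the differences were -0.55 on chromosome 1 and -0.42 on chromosome 4, with no overlap between groups in either. The median difference of all 168 tested miRNAs was -0.30, so the -0.35 on chromosome 1 and the -0.30 on chromosome 15 lay close to it. Whether a locus differed from that median was not tested. Without RapCA replicate 2, 0 of the 3 loci passed.

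The size of every guide's difference depended on the setting, and so did the order of the guides other than miR-30c. The median of all tested miRNAs ranged from -1.08 with spike-in scaling to 0.38 with normexp background correction and an offset of 50. miR-30c had the lowest difference of the 5 guides in 22 of 23 alternatives, of which 8 are refits that leave out 1 array. With no detection filter, which averages in the second miR-30c probe near the floor, its gap to the next guide was 0.05. In the main setting that gap was 0.47. miR-30a had the lowest but one in the main setting, at -0.45, but with the brightest probe alone it was the least lowered guide, at -0.29. For miR-30c the exception was normexp with an offset of 50, where miR-30c was at -0.02 and not called and miR-30a was lower at -0.10. Relative to the median of all tested miRNAs, miR-30c stayed between -1.01 and -0.40, while miR-30a ranged from -0.49 to 0.15. Normexp was run on median spot signals and was added after the data had been seen.

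**Figure D4:**
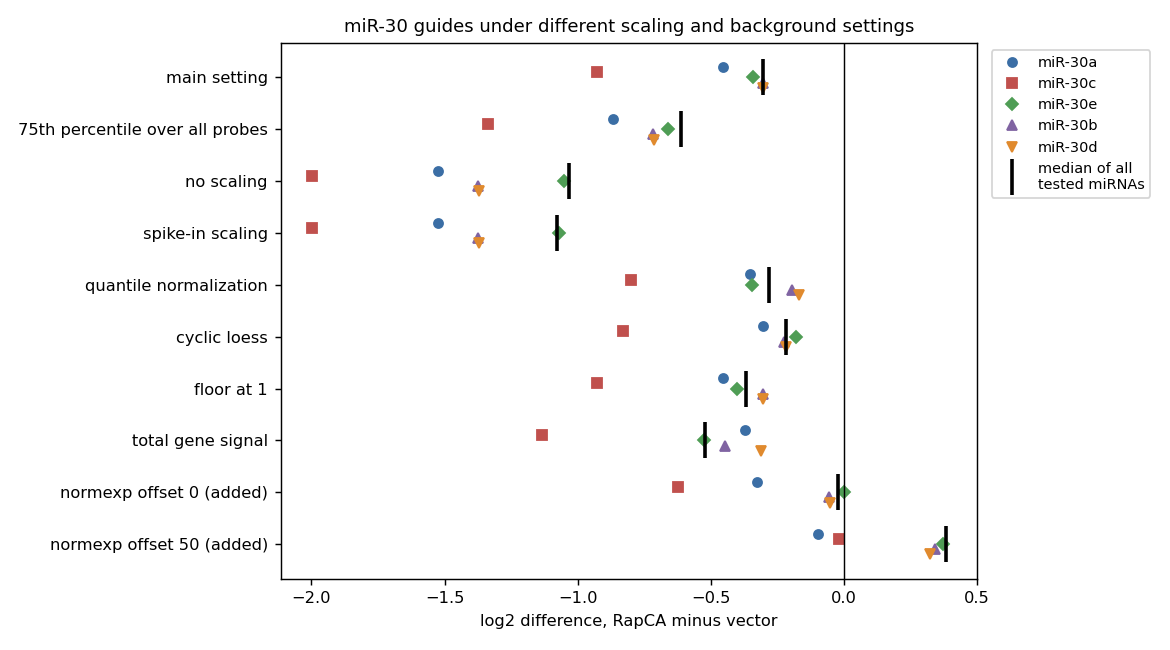
Log2 difference between RapCA and vector for the 5 miR-30 guides under the main setting and 9 alternatives for scaling, floor, summary or background. The black bar is the median of all tested miRNAs in that setting. The guides move with this median, and miR-30c (squares) lies lowest in every setting shown but normexp with an offset of 50, where miR-30a lies lower.

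Among miRNAs outside the family, those whose profile over the 8 arrays lay closest to the mean of the 5 guides were miR-196b, miR-130a and miR-23a. Their root mean square distances on the log2 scale were 0.07, 0.08 and 0.09, after each miRNA was centred on its own mean. All 3 were lowered in RapCA, with -0.47 ± 0.09, -0.34 ± 0.09 and -0.38 ± 0.09 (log2 ± SE, n = 4 per group). They were picked for likeness to the guides on these same arrays, so this direction follows from the choice. The nearest single profile was miR-196b for miR-30a, miR-148b (at or near the floor in RapCA) for miR-30b, miR-193b for miR-30d and miR-301a for miR-30e. For miR-30c it was let-7c, at a distance of 0.07, with 9.31, 9.68, 9.60 and 9.57 on RapCA replicates 1 to 4 and 10.51, 10.31, 10.40 and 10.64 on vector replicates 1 to 4. let-7c also had its lowest value on RapCA replicate 1 and its lowest vector value on replicate 2, as miR-30c did. These distances describe the same 8 arrays and share their brightness.

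miR-384-5p is the 1 other array name with the miR-30 guide seed in the RefSeq sequences used here. It was well above background on 0 of 8 arrays, so no further miRNA with that seed was measured. Of 8 miRNAs known for a role in smooth muscle calcification, 5 were tested. miR-30b and miR-30c were lowered, miR-29a and miR-29b, which target collagens and elastin, were raised by 0.98 ± 0.11 and 1.50 ± 0.35, and miR-125b-5p was at 0.15 ± 0.13 and not called (log2 ± SE, n = 4 per group). The list had a median of 0.15, against -0.30 for all tested miRNAs. Of 4 contractile smooth muscle miRNAs, 2 were tested. miR-143 was lowered, with -1.62 ± 0.15. miR-145 was well above background on 0 of 4 RapCA and 4 of 4 vector arrays, and so entered the test through the vector group alone. Of the 8 let-7 guides, 7 were lowered and 1 did not pass the test, where 50.0% of all tested miRNAs were lowered. The 8 had a median of -0.62, against -0.30 for all tested miRNAs.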

How the data were processed

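Signals came from 1-colour mouse miRNA arrays, 1 per culture. The intensity of each spot was read by the authors in Feature Extraction 10.7.3.1 (Agilent), per the file headers (10.7 in the submitters' processing notes), with background subtracted and a spatial trend fitted, and without scaling between arrays. The deposited series-wide value table held the same intensity values. Control spots and spots with outlier flags (2.98% to 4.66% per array) were left out, and 0 spots were saturated. A probe was detected where over 0.5 of its spots were well above background. Intensity was divided by each array's 75th percentile, taken over 189 probes that every array detected, floored at 9.61 (percentile 1 of spots well above background, median over arrays), and log2 was taken. Spots were averaged within a probe. An miRNA is the mean of its probes that were detected on every array of 1 or both groups. Values at the floor have no order. The comparison used limma 3.58.1 (R 4.3.3), with Benjamini-Hochberg adjustment over all tested miRNAs. Single values had a two-sided exact permutation test, which has 70 assignments. The method was tested on simulated data in which few miRNAs changed, as many up as down. On these arrays 84 of 168 tested miRNAs were lowered and 44 raised, so the simulation does not test the scaling under such a shift. The number of arrays limits the precision. The members, lists and alternatives were chosen with earlier results of these data known. All members are named; other miRNAs are named as the 3 nearest profiles to the mean of the guides, the nearest to each guide, those with the same seed, and members of the lists. Array features were matched to RefSeq by name.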

Additional observations from a re-analysis of the deposited data

Results flagged for a closer look

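In a group of 4 arrays, a value was taken to stand apart where its gap to the nearest other value exceeded Dixon's 95% critical value as a share of the group's range. This was tried on 38 groups, of which chance flags about 1 in 20. On RapCA replicate 1, miR-30c was at 4.81 against 5.15 to 5.21 on the other RapCA arrays, and miR-30d at 4.75 against 5.27 to 5.34 (log2 signal). On the same array miR-30c minus miR-30e was -0.26, against 0.48 to 0.60 on the other RapCA arrays. On vector replicate 1, miR-30a was at 7.17 against 7.32 to 7.35 on the other vector arrays. The brightest RapCA array therefore held 3 of the 4 such values, and the part of array brightness in them was not tested.

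In the scanner software's total signal, which lists 0.1 where a miRNA is not detected, miR-30b* had 6.17 and miR-30c-2* had 5.64 on RapCA replicate 1 and 0.1 on the other 7 arrays, including all vector arrays. No probe of either was well above background on any array by the rule used here.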

How the results depend on the processing

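With 4 arrays a group and members at log2 signals of 3.4 to 7.3, the number of arrays and the floor limit what can be seen of dim members. Over 23 alternatives the count of lowered members (4 in the main setting) stayed within 1.5 times of it in 20, and was 0 under normexp with an offset of 50 and 2 under normexp without an offset, both added after the data had been seen. Leaving out 1 array gave 1 to 4, with 1 without RapCA replicate 2. Members raised (0) numbered 3 and 1 under those 2 normexp settings. Lowered probes (8) numbered 0 and 3 under normexp, 4 with cyclic loess and with no detection filter, 5 with RapCA replicate 1 alone, and 2 to 7 when 1 array was left out. Passing loci (2) numbered 0 under both normexp settings and 0 to 2 when 1 array was left out. Called values that turned were miR-30a* (0.65 and 0.32), miR-30b (0.34) and miR-30e (0.37) under normexp with an offset of 50, the second value of miR-30a* being that without an offset, and miR-30e* (-1.20 with total gene signal); the cause was not tested. Another 11 member values changed sign without a call in the main setting and the alternative, among them miR-30d (0.32 under normexp with an offset of 50) and miR-30e (0.14 with RapCA replicate 1 alone). The count of pairs past the threshold was 0 in all 21 alternatives run for it, which the smallest p of the exact test made nearly certain. Of 250 pair values, 39 changed sign without passing in either setting. Lowered and raised miRNAs overall (84 and 44) were 20 and 76 under normexp with an offset of 50, 54 and 53 without an offset, 111 and 9 with spike-in scaling, 113 and 10 when unscaled, and 103 and 28 with all probes. Normexp on mean signals was not run.

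Whether the same replicate number in both groups pairs the arrays could not be told. Same-numbered arrays had deviations that correlated at -0.65, -0.60, -0.55 and 0.63 over 168 miRNAs. Differently numbered arrays correlated as strongly, with 0.75 for RapCA replicate 1 and vector replicate 3 and -0.75 for RapCA replicate 1 and vector replicate 4. Such values can neither show nor exclude pairing. With the replicate block 3 members and 4 probes were lowered.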
